A study of Mus musculus with 6 samples.

Results

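Gene expression in the hippocampus of Phf8 knockout (KO) and wild-type (WT) mice was examined here for 9 genes of transcription factors known from the diencephalon, the forebrain division that holds the thalamus, the habenula and the hypothalamus. They are Zic1, Zic2, Zic4, Tcf7l2, Lef1, Lhx2, Lhx9, Gbx2 and Six3, and all probe sets that the array's gene table pairs with one of these symbols alone were taken, 20 probe sets of 9 genes out of 34945 probe sets of 18193 genes. The genes were chosen from these same arrays, because several of them were high on the array of KO replicate 3 and Zic1 on all KO arrays, so their levels are given as a description and without a test. The study compared 3 WT samples with 3 Phf8 KO samples of C57BL/6 background, 10 weeks of age, with 1 Affymetrix array for each sample. Per the study's methods the KO is a germline deletion of exons of the catalytic JmjC domain, made with EIIa-Cre and backcrossed to C57BL/6J, and males and their wild-type littermates were used. The mice carried no treatment that the labels name. The methods leave unsettled whether an array holds tissue of 1 mouse or of several, so the spread between arrays may be partly technical.

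ZIC proteins are zinc finger transcription factors that pattern the dorsal neural tube, and in the mature brain their genes are known from cerebellar granule cells, septum, thalamus and habenula, and from the meninges. TCF7L2 and LEF1 are the DNA-binding partners of beta-catenin in Wnt signaling, and Tcf7l2 marks thalamic and habenular neurons. GBX2 and LHX9 act in the developing thalamus, SIX3 in the anterior forebrain and striatum, and LHX2 is required for the cortex and hippocampus to form at all. The hippocampus itself is part of the telencephalon, and its neurons are known for factors such as NEUROD6, PROX1 and EMX1.

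Promoters are shown for Zic1 and Zic4, which are neighbors on chromosome 9, and for Tcf7l2, the gene with the most probe sets high on KO replicate 3. Their sequence was not tested against the signals. RefSeq (GRCm38.p6) gives promoters for 8 of the 9 genes, 13 in all. The start sites listed for Zic1, on the minus strand, and for Zic4, on the plus strand, lie 3204 bases apart and point away from each other. The 250 bases before each start site are shown 5′ to 3′ for Zic1 (chr9:91365769-91366018, minus strand), Zic4 (chr9:91368722-91368971, plus strand) and 1 of the 2 promoters of Tcf7l2 (chr19:55741560-55741809, plus strand), with every CG dinucleotide in capitals.
Zic1: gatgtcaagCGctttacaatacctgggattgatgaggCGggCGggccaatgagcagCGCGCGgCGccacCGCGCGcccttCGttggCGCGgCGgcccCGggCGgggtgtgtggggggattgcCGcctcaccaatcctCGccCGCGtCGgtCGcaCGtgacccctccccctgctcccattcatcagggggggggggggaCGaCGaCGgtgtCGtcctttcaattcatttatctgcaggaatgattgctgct
Zic4: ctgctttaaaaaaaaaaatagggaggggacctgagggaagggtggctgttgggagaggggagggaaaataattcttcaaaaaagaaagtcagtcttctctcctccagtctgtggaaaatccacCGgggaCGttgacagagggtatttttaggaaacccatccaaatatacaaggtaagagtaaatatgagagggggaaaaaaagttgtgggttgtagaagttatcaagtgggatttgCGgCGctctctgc
Tcf7l2: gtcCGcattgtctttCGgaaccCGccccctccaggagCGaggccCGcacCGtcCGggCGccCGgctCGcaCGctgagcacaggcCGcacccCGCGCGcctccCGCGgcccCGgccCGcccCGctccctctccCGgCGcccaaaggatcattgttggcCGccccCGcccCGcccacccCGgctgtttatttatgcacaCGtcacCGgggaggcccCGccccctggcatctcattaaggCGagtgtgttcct
The Zic1 window holds 27 CG dinucleotides and the Tcf7l2 window 30, and 8.56% and 5.94% of all 32851 promoters hold at least as many. The Zic4 window holds 4, a number that 62.2% of promoters reach. The letters CTTTGAT, the core that TCF and LEF proteins bind, were searched on both strands and occur in 3.21% of promoters, and in 0 of the 13 of these genes. The letters TAATTA, a site that homeodomain proteins bind, occur in 4.84% of promoters and likewise in 0 of the 13. Shorter homeodomain sites were not searched.

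KO replicate 3 differed from the other arrays in its whole profile. Its correlation with the other arrays over the 27408 probe sets above the filter (across probe sets, which are not independent replicates) was 0.899 to 0.925, against 0.968 to 0.985 among the other 5. Signals there lay at least 1 log2 unit, or 2-fold, from the WT mean for 14.0% of probe sets, against 1.71% in KO replicate 1 and 4.22% in KO replicate 2. Phf8 was low on all 3 KO arrays, where its bright probe set averaged 8.26 ± 0.28 (SD, n = 3) on the log2 scale against 9.76 ± 0.13 (SD, n = 3) on the WT arrays. Its 2 dim probe sets differed by -0.06 and 0.32. The main differences below are therefore also given without KO replicate 3. All levels are log2 MAS5 signals, and a probe set was kept when it exceeded the 40th percentile of its array (log2 levels of 5.73 to 6.05) on at least 3 of 6 arrays. Of the 20 probe sets, 13 from 8 genes were kept, and the 7 others, among them the single one of Gbx2, lay near background on most arrays.

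Zic1 was the gene of the 9 whose kept probe sets lay furthest above the WT mean on all 3 KO arrays. Its brighter probe set (1423477_at) had log2 signals of 9.76, 10.37 and 9.67 on the WT arrays and of 11.12, 10.71 and 13.61 on the arrays of KO replicates 1, 2 and 3. Every KO array lay above every WT array, by 0.75, 0.34 and 3.24 over the highest of them. The other probe set (1439627_at) had 8.71, 9.21 and 8.71 in WT and 10.44, 10.02 and 13.20 in KO, so the groups did not overlap there either. Relative to the WT mean, the brighter probe set was higher by 1.19, 0.78 and 3.68 on the log2 scale in KO replicates 1, 2 and 3, and the other by 1.56, 1.15 and 4.33. The mean difference between KO and WT was 1.88 (standard error 0.93) and 2.34 (standard error 1.01). Without KO replicate 3 these were 0.98 and 1.35. More cells with the gene and more RNA per cell cannot be told apart in such samples of whole tissue.

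Zic2 and Zic4, which encode close relatives of ZIC1, stood high on KO replicate 3 and much less, or not at all, on the other KO arrays. Zic2 had log2 signals of 6.16, 6.74 and 6.07 in WT and of 6.83, 6.14 and 9.58 in KO. KO replicate 1 exceeded the highest WT array by only 0.09, KO replicate 2 lay among the WT arrays, and KO replicate 3 exceeded the highest WT array by 2.84. The kept probe set of Zic4 (1456417_at) had 6.70, 6.96 and 6.51 in WT and 7.26, 6.04 and 9.22 in KO. On KO replicate 2 it thus lay below all WT arrays, 0.68 under their mean, while its neighbor Zic1 was higher there by 0.78 and 1.15. KO replicate 2 had the lowest median signal (6.55) and filter level (5.73) of the 6 arrays. Signals there lay at least 1 log2 unit from the WT mean for 4.22% of kept probe sets, and that far above it for 0.52%. The part of this in the contrast between the dimmer Zic4 and Zic1 was not tested. Without KO replicate 3 the mean difference was 0.16 for Zic2 and -0.07 for Zic4. The second probe set of Zic4 was above the filter on 1 of 6 arrays (7.25 on KO replicate 3) and had 4.16, 1.27 and 4.38 in WT and 5.27 and 4.73 in KO replicates 1 and 2. On these low signals KO replicates 1 and 2 lay 2.0 and 1.46 above the WT mean, or 0.94 and 0.58 with an offset of 16 signal units added before log2, and all KO arrays lay above all WT arrays. The Zic1 and Zic2 probe sets and the kept one of Zic4 were all highest in WT replicate 2 among the WT arrays.

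**Figure D1:**
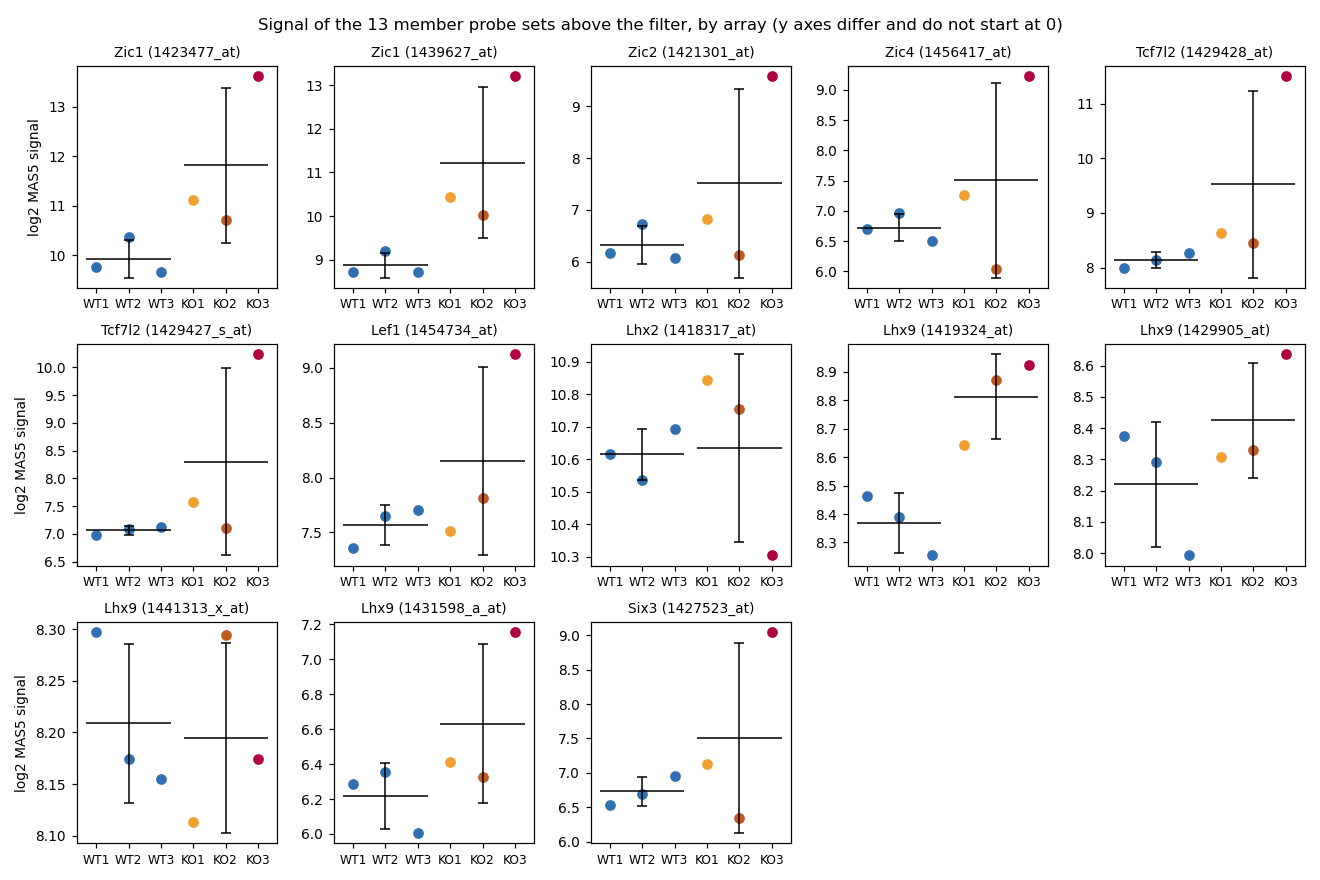
Log2 MAS5 signal (y axis, a separate range in each panel) of the 13 kept probe sets on each of the 6 arrays (x axis), with a line at each group's mean and a bar of 1 SD to either side. KO3 is the highest array in 11 of the 13 panels, and the KO arrays all lie above the WT arrays for both Zic1 probe sets (upper left), 1 of Tcf7l2 and 1 of Lhx9.

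Tcf7l2 was high on KO replicate 3, and on KO replicates 1 and 2 it was at most slightly above WT. The brightest of its probe sets (1429428_at) had log2 signals of 7.99, 8.13 and 8.28 in WT and of 8.64, 8.44 and 11.50 in KO. The groups did not overlap, but KO replicate 2 exceeded the highest WT array by only 0.17, against 3.23 in KO replicate 3. The other kept probe set (1429427_s_at) had 6.97, 7.09 and 7.12 in WT and 7.57, 7.10 and 10.24 in KO, with KO replicate 2 inside the WT range by 0.03. Without KO replicate 3 the mean differences of 1.40 and 1.24 became 0.41 and 0.27. Of the 2 dim probe sets, 1425229_a_at had 5.72 to 5.79 on the WT arrays, 5.65 and 5.79 in KO replicates 1 and 2 and 8.82 in KO replicate 3. The other, 1426639_a_at, spread from -0.08 to 4.60 over the WT arrays and had 7.45 in KO replicate 3. On KO replicate 3 all 4 probe sets of the gene were thus at least 2.66 above every other array.

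Lef1, the relative of Tcf7l2, was also highest on KO replicate 3, with a smaller step. Its kept probe set had log2 signals of 7.36, 7.65 and 7.70 in WT and of 7.51, 7.81 and 9.12 in KO. KO replicate 1 lay inside the WT range, KO replicate 2 was 0.11 above it and KO replicate 3 was 1.42 above it. The mean difference was 0.58 (standard error 0.51), and without KO replicate 3 it was 0.09. The dim probe set had 3.91 to 5.38 in WT and 4.96, 4.98 and 6.66 in KO.

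Six3 and Gbx2, both homeodomain genes, were measured on low signals. The kept probe set of Six3 (1427523_at) had log2 signals of 6.54, 6.69 and 6.96 in WT and of 7.13, 6.35 and 9.05 in KO. KO replicate 2, the array with the lowest median signal, lay below all WT arrays, and KO replicate 1 was 0.17 above the highest. The mean difference of 0.78 thus became 0.01 without KO replicate 3. The 2 other Six3 probe sets were below the filter on all 6 arrays, and their signals on KO replicate 3 (5.15 and 1.43) were within 0.09 of the highest other array. Gbx2 had 4.10, 4.30 and 3.64 in WT, 4.24 and 1.68 in KO replicates 1 and 2, and 8.70 in KO replicate 3, the only array on which it exceeded the filter. It lay 4.68 above the WT mean there, or 3.74 with the offset, and the size of this step depends on the background of the other arrays.

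The LIM homeodomain genes differed from the rest. Lhx2 had log2 signals of 10.62, 10.54 and 10.69 in WT and of 10.84, 10.75 and 10.30 in KO, and it was the only gene of the 9 with no probe set higher on KO replicate 3. That array was the lowest of the 6, at 0.31 below the WT mean, while KO replicates 1 and 2 were the highest, at 0.23 and 0.14 above it. KO replicate 3 was likewise the lowest of the 6 arrays for 34.7% of the 27408 kept probe sets. The brightest probe set of Lhx9 (1419324_at) had 8.46, 8.39 and 8.25 in WT and 8.64, 8.87 and 8.92 in KO. All KO arrays lay above all WT arrays, at similar levels, and the mean difference of 0.44 (standard error 0.11) was 0.39 without KO replicate 3. The other Lhx9 probe sets did not show this order. The next, 1429905_at, exceeded every WT array only on KO replicate 3 (8.64 against 7.99 to 8.38), 1431598_a_at had 7.15 on that array against 6.00 to 6.36 in WT, with KO replicate 1 at 6.41 just above the WT range and KO replicate 2 at 6.33 inside it, and 1441313_x_at, a type of probe set that can match other transcripts, had 8.16 to 8.30 in WT and 8.11, 8.29 and 8.17 in KO.

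**Figure D2:**
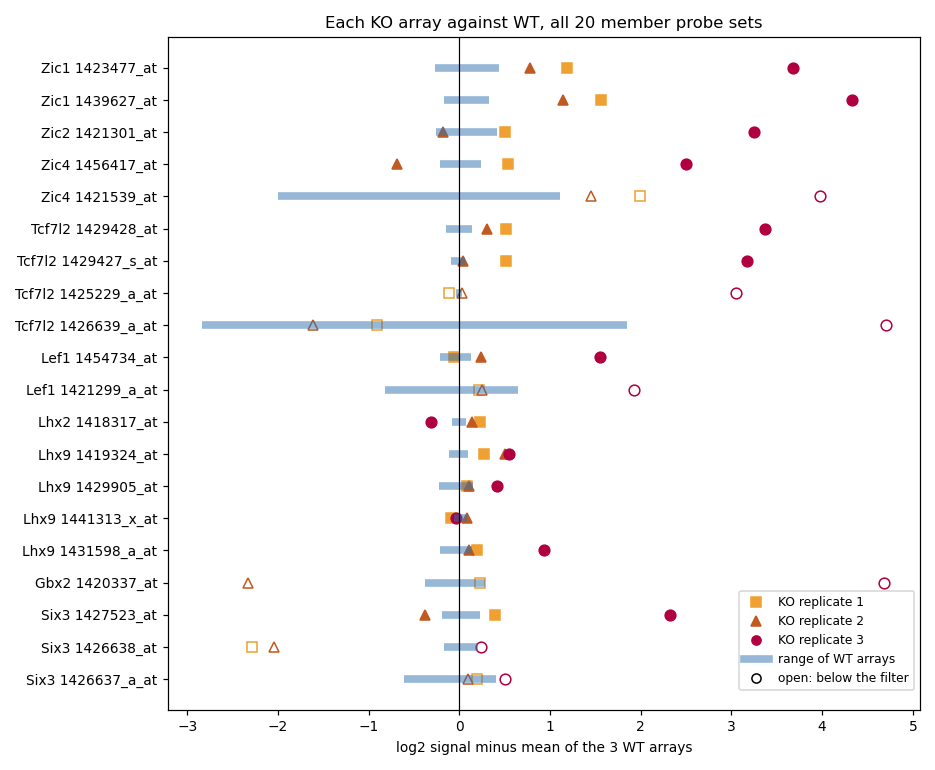
Difference of each KO array from the WT mean on the log2 scale (x axis) for all 20 probe sets (rows), with the range of the WT arrays as a blue bar and open symbols for probe sets below the filter. KO replicate 3 lies above 3 for Zic1, Zic2, all 4 probe sets of Tcf7l2 and the dim ones of Zic4 and Gbx2, and KO replicates 1 and 2 lie right of the WT range by the most, among kept probe sets, for 1 of Zic1.

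Of the 13 kept probe sets, 4 were above every WT array on all 3 KO arrays (both of Zic1, 1 of Tcf7l2 and 1 of Lhx9), against 7.37% of all 27408 kept probe sets, and 0 were below every WT array on all 3, against 7.83%. A further 6 were so on KO replicate 3 and 1 other KO array (14% of all kept), 1 on KO replicate 3 only (18.9% of all kept), 1, of Lhx2, on KO replicates 1 and 2 and 1 on none. With raised taken as at least 1.5-fold above the WT mean, only the 2 of Zic1 met it on all 3 KO arrays (0.777% of all kept). By that measure 7 met it on KO replicate 3 alone (15.1% of all kept), namely those of Zic2, Zic4, Lef1 and Six3, both of Tcf7l2 and 1 of Lhx9. KO replicate 3 was the highest of the 6 arrays for 11 of 13, against 34.2% of all kept, and at least 1 log2 unit above the WT mean for 8 of 13, against 7.95%. KO replicate 1 was that far above it for 2 of 13, both of Zic1 (1.05% of all kept). KO replicate 1 exceeded the WT mean at all for 11 of 13 and KO replicate 2 for 10 of 13, against 54.9% and 46.7%. Since the genes were chosen for these levels, nothing follows from the shares. The median over the 13 relative to the WT mean was 0.40 in KO replicate 1, 0.11 in KO replicate 2 and 2.32 in KO replicate 3, and that of all kept probe sets was 0.03, -0.03 and 0.00.

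**Figure D3:**
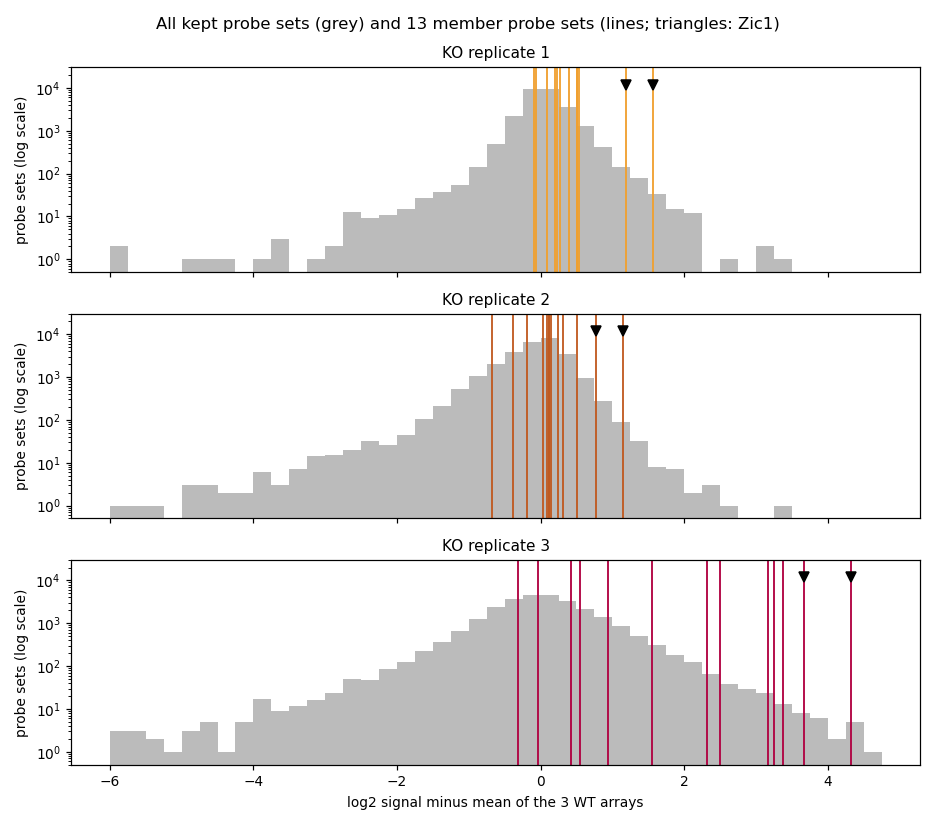
Number of kept probe sets (y axis, log scale) by log2 signal minus the WT mean (x axis, bins of 0.25, values beyond 6 in the end bins) on each KO array, with the 13 kept probe sets of these genes as colored lines and those of Zic1 under triangles. Zic1 lies to the right of the other lines on all 3 arrays, at 1.19 and 1.56, 0.78 and 1.15, and 3.68 and 4.33.

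The relatives of these genes that were not chosen were tested with the rest of the genome. KO was compared with WT by limma over 12903 genes, each by its brightest kept probe set, and 0 genes were higher and 8 (0.062%) lower at an adjusted p under 0.05. At an unadjusted p under 0.05, 965 genes (7.48%) differed, of which 605 (4.69%) were higher. Without KO replicate 3, 13 genes (0.101%) were higher and 40 (0.31%) lower at an adjusted p under 0.05. Of 20 relatives in the same families 17 were on the array, 6 were measured and none passed. The 11 others on the array lay below the filter. It asks for 3 of 6 arrays and so drops genes high on KO replicate 3 alone. Zic5, the neighbor of Zic2 on chromosome 14, had log2 signals of 7.53, 7.79 and 7.19 in WT and of 8.23, 7.93 and 9.89 in KO. All KO arrays lay above all WT arrays, as for 9.56% of all genes. KO exceeded WT by 1.18 (standard error 0.48), which did not pass in limma (adjusted p = 0.659), and by 0.58 without KO replicate 3. It was the only measured relative at least 1 log2 unit higher on KO replicate 3 (2.39), and the Wnt factor gene Tcf7l1 lay 0.83 and 1.11 above the WT mean in KO replicates 1 and 2 and at -1.17 from it in KO replicate 3. The LIM homeodomain gene Lhx6 of interneurons, with Isl2 and Six4, differed by 0.13 to 0.39, or by 0.30 to 0.35 without KO replicate 3.

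Of 28 other transcription factor genes of the diencephalon 27 were on the array, and 16 of these lay below the filter, with the same limit. The other 11 were measured, and 0 passed in either direction in limma. On KO replicate 3, 5 of the 11 lay at least 1 log2 unit above the WT mean, against 5.76% of all genes, and 6 of the 11 exceeded every WT array on that KO array alone, against 16% of all genes. Foxp2, known from thalamus, striatum and deep cortex, had 5.61, 6.62 and 6.09 in WT and 6.58, 6.59 and 10.52 in KO. Only KO replicate 3 lay above the WT arrays, and the mean difference of 1.79 (adjusted p = 0.684 from limma) was 0.48 without it. The nuclear receptor gene Rora was 1.49 above the WT mean there, Irx3 2.05, Vax1 1.5 and Nhlh2 1.22, and on KO replicates 1 and 2 Rora, Irx3 and Nhlh2 lay between -0.09 and 0.11. Nkx2-2 and Otx1 were above every WT array on all KO arrays, as for 9.56% of all genes, by small margins on low signals. Nkx2-2 had 6.83 on KO replicate 3 against 6.81 on WT replicate 2, and Otx1 6.02 on KO replicate 1 against 6.00 on WT replicate 1. Their differences were 0.48 and 0.63, or 0.58 and 0.67 without KO replicate 3. Otx2, a factor of the choroid plexus as well, lay 1.49, 0.48 and 0.98 above the WT mean in KO replicates 1, 2 and 3. Its WT arrays spread from 6.82 to 8.71. Over the 11 genes the median lay at 0.29, 0.11 and 0.98 in KO replicates 1, 2 and 3, and that of all genes lay between -0.01 and 0.04.

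Transcription factor genes of cortex and hippocampus went the other way on KO replicate 3. Of 22 measured, 0 passed in limma and 11 were at least 1 log2 unit below the WT mean on that array, against 4.37% of all genes. Neurod6, a factor of pyramidal neurons, had 12.49, 12.25 and 12.46 in WT, 12.41 and 12.50 in KO replicates 1 and 2 and 10.50 in KO replicate 3. Pou3f1, Neurod1 and Fezf2 lay -2.13, -1.60 and -1.58 from the WT mean there, while Prox1 of the dentate gyrus lay at -0.31, Emx1 at -0.38 and Cux2 at 0.81. The median of the list was 0.02, 0.05 and -0.99 in KO replicates 1, 2 and 3.

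The labelled tissue was checked by markers. All 17 markers of CA1, CA3 and dentate gyrus neurons on the array exceeded the filter in every WT array, and their median was -0.11, -0.08 and -0.20 in KO replicates 1, 2 and 3. Wfs1 of CA1 was higher by 0.70 in KO replicate 3, Grik4 of CA3 by 0.22, and Dsp of the dentate gyrus lay at -1.40. In all 4 of the 17 were at least 1 log2 unit below the WT mean in KO replicate 3, against 4.37% of all genes, the others being Mpped1 (-1.55), Tdo2 (-1.28) and Npnt (-1.19), and 0 were as far above it. Lct and Stxbp6 differed by -0.76 and -0.35 between KO and WT, neither past the threshold in limma (adjusted p = 0.531 and adjusted p = 0.590), and by -0.66 and -0.27 without KO replicate 3.

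Markers of neighboring tissues stood high on KO replicate 3 as well. Of 19 measured effector genes of thalamus and habenula, which are no transcription factors, 12 were at least 1 log2 unit above the WT mean in KO replicate 3, against 5.76% of all genes, and 0 in KO replicates 1 and 2. They had a median of 0.01, 0.06 and 1.65 in KO replicates 1, 2 and 3, and their summed linear signal was 29323 to 32276 on the WT arrays, 29544 and 31756 in KO replicates 1 and 2 and 56806 in KO replicate 3. Slc17a6, the vesicular glutamate transporter of thalamic neurons, had 9.39, 9.62 and 9.49 in WT and 9.88, 10.09 and 12.22 in KO. It was above every WT array on all 3 KO arrays, as for 9.56% of all genes, and lay 0.38 and 0.60 over the WT mean in KO replicates 1 and 2. The mean difference was 1.24 (adjusted p = 0.665 from limma), and 0.49 without KO replicate 3. The kinase gene Prkcd of thalamic relay neurons lay 0.19, -0.43 and 3.34 from the WT mean. Nrn1 and Necab1 of the same list went the other way in KO replicate 3, at -0.79 and -0.80. In that array 0 of the 19 were at least 1 log2 unit below the WT mean. Chrna3, Chrnb3, Chrnb4 and Gpr151, which define the habenula, and Slitrk6 and Tnnt1 were below the filter. Markers of striatum and septum were at least 1 log2 unit higher in KO replicate 3 for 8 of 9 (median 1.63, summed signal of 15425 against 6584 to 6997 in WT and 6940 and 7217 in KO replicates 1 and 2), with Chat, Drd2, Slc18a3 and Crhr2 below the filter. Those of cerebellar granule cells were so for 3 of 5 (median 1.90, summed signal of 5439 against 1314 to 1735 in WT and 1698 and 1503 in KO replicates 1 and 2), with the defining Gabra6, Cbln3, Barhl1 and Fat2 below the filter. Those of the hypothalamus were so for 3 of 6 (median 0.75, summed signal of 2210 against 717 to 877 in WT and 1202 and 1003 in KO replicates 1 and 2), with Hcrt at -0.45 in KO replicate 3 and with Avp, Gal, Ghrh and Trh below the filter. Calb2, at 2.45 above the WT mean in KO replicate 3, counts in both the thalamus and habenula list and the cerebellar list. It is the brightest gene of the cerebellar list on that array. The filter asks for 3 of 6 arrays, so a gene high on KO replicate 3 alone falls below it, as Gbx2 did. Being below the filter thus does not show that a marker was low on that array. No gene of these 4 lists passed in limma, and the part of such tissue in the levels of Tcf7l2, Lef1, Zic2, Zic4, Gbx2 and Six3 was not tested.

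Markers of the meninges followed another order, which is given because Zic1 is known there too. Over 16 measured genes the median lay at 0.84 and 0.54 in KO replicates 1 and 2 and at -0.13 in KO replicate 3. On the WT arrays it lay at -0.09, 0.26 and -0.21. WT replicate 2 was the highest of these, as for Zic1, but also as for the ependyma and choroid plexus markers below. The summed signal of the meninges markers was 4462 to 6156 in WT, 10179 and 7898 in KO replicates 1 and 2 and 4477 in KO replicate 3. The collagen gene Col1a2 had 7.58, 8.34 and 7.75 in WT and 9.30, 8.86 and 9.35 in KO. KO was higher by 1.28 (standard error 0.24) and did not pass in limma (adjusted p = 0.305), and without KO replicate 3 it was higher by 1.19 (adjusted p = 0.0794). Col3a1 differed by 1.29 and Bmp7 by 0.73 (1.48 and 0.77 without KO replicate 3). Both were above every WT array on all KO arrays, as for 9.56% of all genes. Foxc1, a defining factor of the meninges, lay 0.22, 0.54 and -0.71 from the WT mean. Col1a1 and Foxc2 were below the filter. Ependyma markers were at least 1 log2 unit above the WT mean in KO replicate 3 for 7 of 10, against 5.76% of all genes. Their median was 0.68, 0.41 and 1.09 in KO replicates 1, 2 and 3, against -0.04, 0.35 and -0.37 in WT replicates 1, 2 and 3. Their summed signal was 1474 to 2433 in WT, 2950 and 2287 in KO replicates 1 and 2 and 4689 in KO replicate 3. Choroid plexus markers had a median of 1.33, 0.33 and -2.07, against 0.06, 0.93 and -1.0 in WT replicates 1, 2 and 3. Their summed signal was 30819 to 38722 in WT, 40472 and 32710 in KO replicates 1 and 2 and 17730 in KO replicate 3. None of the measured genes of these lists passed in limma. The part of these tissues in the level of Zic1 was not tested.

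**Figure D4:**
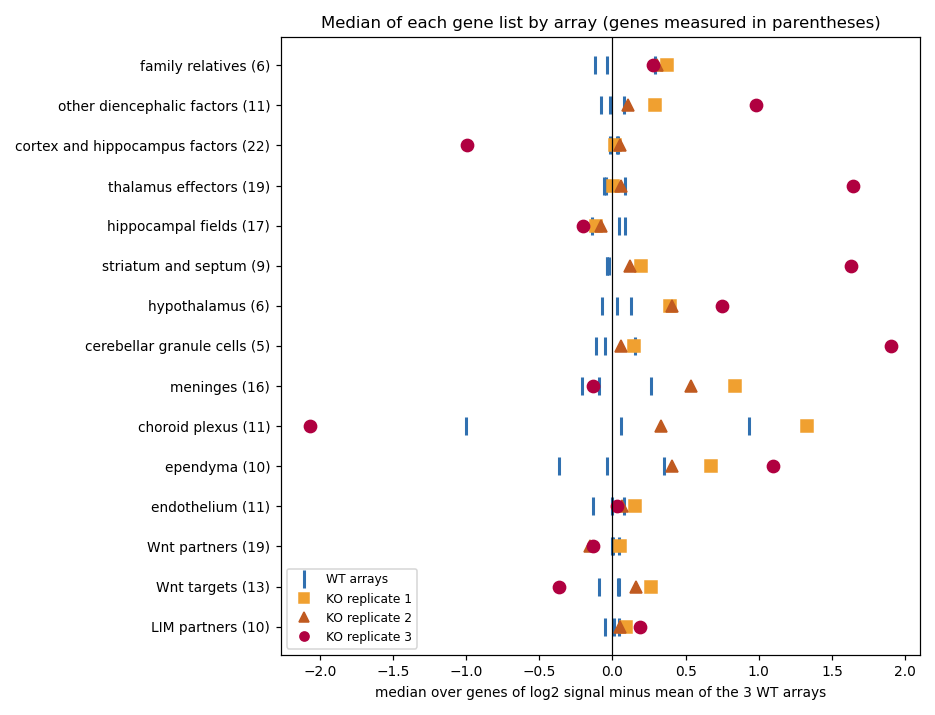
Median over the measured genes of each list (rows, number of genes in parentheses) of the log2 difference from the WT mean (x axis), for each of the 6 arrays. In KO replicate 3 the thalamus effectors lie at 1.65 and the factors of cortex and hippocampus at -0.99, and the meninges lie at 0.84 and 0.54 in KO replicates 1 and 2.

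The partners and targets of the TCF and LEF factors showed no such step in their medians on KO replicate 3. Of 19 partners in Wnt signaling 0 passed in limma, with a median of 0.05, -0.15 and -0.13 in KO replicates 1, 2 and 3. Ctnnb1, the gene of beta-catenin, differed by -0.05 between KO and WT. Of 13 measured target genes 0 passed, with a median of 0.27, 0.16 and -0.36. Axin2, the most used readout of this signaling, had 8.37, 8.46 and 8.68 in WT and 9.04, 8.80 and 8.63 in KO (0.32, adjusted p = 0.675 from limma, and 0.41 without KO replicate 3). On KO replicate 3 it lay inside the WT range, 0.12 above the WT mean, and a link to the level of Tcf7l2 was not tested. Lgr5 and Cacna1g, a calcium channel gene of thalamic neurons, were 1.21 and 1.48 above the WT mean in KO replicate 3. The partners of LIM homeodomain proteins, 10 genes with a median of 0.10, 0.05 and 0.19, did not pass either. Lmo4 differed by 0.17 and Lmo1 by -0.40. In KO replicate 3, 2 of the 10 were at least 1 log2 unit above the WT mean, Ldb1 (1.14) and Ssbp4 (1.65). As far below it was 1, Lmo3 (-1.27). On KO replicate 2 Ldb1 and Ssbp4 lay at -1.80 and -0.70. Endothelial markers, among whose cells Lef1 is known, had a median of 0.16, 0.06 and 0.03, and of 11 measured 0 passed, or 1 without KO replicate 3, the transporter gene Slco1a4 (0.62, adjusted p = 0.0423 from limma). Over all 15 lists, 0 of 180 measured genes passed with all arrays, and 13 were higher and 3 lower at an unadjusted p under 0.05.

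Among the other 12895 genes, those nearest in their deviations from the WT mean over the 6 arrays were found for the brightest probe sets of Zic1 and Tcf7l2, by the root mean square of the differences. For Tcf7l2 they were Ano1 (0.15), Ramp3 (0.17), Cartpt (0.19), Patj (0.20) and Col6a3 (0.23), all between 2.82 and 3.50 above the WT mean in KO replicate 3. Of these, Ano1 is a chloride channel gene, Ramp3 a receptor-modifying protein gene of the thalamus and Cartpt a neuropeptide gene. For Zic1 they were Lbhd2 (0.35), Baiap3 (0.40), Ano1 (0.43), Eomes (0.45) and Foxp2 (0.47), at larger distances. The T-box factor gene Eomes had 5.36, 5.90 and 4.75 in WT and 6.31, 6.66 and 8.16 in KO. Its WT signals lay below the filter levels of those arrays (5.83, 5.98 and 5.95), so it was kept through the KO arrays alone. Every KO array lay above every WT array for Eomes, as for 9.56% of all genes. Lbhd2 lay 0.88, 0.75 and 3.80 above the WT mean. KO replicate 3 was the highest array for each of these genes. This, their levels on the KO arrays and the order of the arrays for Eomes follow from the choice of genes near Zic1 or Tcf7l2.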

How the data were processed

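Hippocampal RNA of 3 WT and 3 Phf8 KO samples was hybridised to Affymetrix mouse arrays, 1 per sample. The authors deposited log2 MAS5 signals of 45037 probe sets, scaled so that the mean signal after trimming 2% at each end lies between 497.5 and 498.2 on each array. MAS5 and affy are named in the submitters' processing notes (versions not given in the sources used here). The study's methods add GeneSpring and the removal of probes called Absent, but detection calls were not used here. Genes came from the platform annotation (1 gene for 34945 probe sets, several for 932, none listed for 9160), and RefSeq genes of GRCm38.p6 changed no symbol.

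Probe sets above the 40th percentile on at least 3 of 6 arrays were kept. The brightest kept probe set stood for each of 12903 genes, and the difference between KO and WT was tested by limma 3.58.1 (R 4.3.3) with a variance trend and Benjamini-Hochberg adjustment. The fit was tested on simulated data. Named are all probe sets of the 9 genes and Phf8, defining markers, and the 5 genes nearest in pattern to Zic1 and Tcf7l2. Up to 4 genes of each of 15 lists by smallest p were planned, but several of these are not named. Further list genes, such as Pou3f1 and Fezf2, were named after their values were seen. The genes and lists were chosen with earlier results of these data known. Alternatives covered normalization, filter, offset, variance model, array weights, pairing, probe set rule and each array left out. The number of arrays limits the precision.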

Additional observations from a re-analysis of the deposited data

How the results depend on the processing

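The number of probe sets above every WT array on KO replicate 3 only was 1 as reported, and it was 0 after quantile normalization, 0 after median centring, 3 with the filter at the 20th percentile, 6 with no filter, which adds the dim probe sets, and 7 with raised taken as 1.5-fold above the WT mean. It ran from 0 to 6 when single arrays were left out, and without KO replicate 3 it has no value. The number above on all KO arrays was 4, or 2 at 1.5-fold. It was 5 after quantile normalization, after median centring, with no filter and with the filter at the 20th percentile. When single arrays were left out it ran from 5 to 9, with the 9 reached without KO replicate 2. Leaving out an array can only keep or raise this count, so that range does not show whether the count is stable. The difference of the brightest Zic1 probe set ran from 0.98 without KO replicate 3 to 2.43 without KO replicate 2, for Zic4 it ran from -0.07 to 1.52 and for Lhx2 from -0.09 to 0.18, so that these turned sign.

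Of all genes 8 were lower in limma, against 0 without the trend in the variance (980 at an unadjusted p under 0.05). With single arrays left out, 0 to 40 genes were lower and 0 to 13 higher (396 to 1798 at an unadjusted p under 0.05), both upper counts without KO replicate 3, and 0 to 1 list genes were higher. The count lower was 0 without WT replicate 1, WT replicate 2 or KO replicate 2 and 1 without WT replicate 3 or KO replicate 1. With array weights 1987 genes were higher and 1350 lower, and 52 and 12 of the list genes, but the estimation of the weights stopped before it converged. With the replicate number as a block 4 genes were lower. The labels do not pair the samples by that number: deviations of equal number correlated at -0.04, 0.07 and 0.13, and KO replicate 1 correlated best with WT replicate 2 (0.20), so the block is arbitrary. The causes of these changes were not tested. The other 65 alternative counts stayed within 1.5 times. The differences of single genes moved by less than the SD between arrays, a spread that KO replicate 3 itself widens, but without that array they went from 1.88 to 0.98 for Zic1, from 1.19 to 0.16 for Zic2, from 1.40 to 0.41 for Tcf7l2, from 0.58 to 0.09 for Lef1 and from 0.78 to 0.01 for Six3. On low signals the size of a difference depends on the background.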
